A study of Mus musculus with 17 samples.

Results

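The MHC class II presentation genes examined here are H2-Aa, H2-Ab1, H2-Eb1, Cd74, H2-DMa, H2-DMb1, Ciita and Cd86, taken by gene name from the count table of a total RNA-Seq experiment on mouse lung fibroblast cultures. These 8 genes are all in the table, which lists 55421 genes. CPM (counts scaled to a common library total) had to exceed 10 in at least 2 libraries for a gene to be tested, and 7 of the 8 passed. Ciita exceeded 10 CPM in 0 libraries and was tested only in a fit without that filter.

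All mice were of 1 genotype on a C57BL/6J background: homozygous floxed Ephb4 alleles with Col1a2-CreERT2, a tamoxifen-inducible Cre driven by the promoter of a collagen I gene, so that deletion is limited to cells that express Col1a2. Ephb4 CKO mice received 4-hydroxytamoxifen at 1 mg a day for 5 days from 4 weeks of age, and Ephb4 control mice received the corn oil vehicle. These arms are called genotypes below, and effects of the drug and of the deletion cannot be told apart in this design. At 6 weeks of age bleomycin, which damages the lung and leads to fibrosis, was instilled into the trachea at 1.2 U/kg, or PBS was given instead. Lungs were taken 14 days later, and fibroblasts were grown in 10% FBS and passaged 1 time before RNA was collected. The 17 libraries, each from 1 mouse, came from Ephb4 control mice (4 after PBS, 4 after bleomycin) and Ephb4 CKO mice (5 after PBS, 4 after bleomycin).

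MHC class II molecules carry peptides from endosomes to the cell surface and show them to CD4+ T cells. H2-Aa encodes the alpha chain and H2-Ab1 the beta chain of I-A, H2-Eb1 encodes the beta chain of I-E, and Cd74 encodes the invariant chain that fills the groove until the molecule reaches an endosome. H2-DMa and H2-DMb1 encode the DM heterodimer, which exchanges the invariant chain fragment for peptide, Ciita encodes the transactivator that class II promoters need, and Cd86 encodes a surface ligand that costimulates T cells through CD28. In the lung, class II is carried at the surface by dendritic cells, B cells and many macrophages, among other cells, and interferon-gamma can induce it in fibroblasts and endothelium.

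Class II promoters are known for an X box and a Y box, short elements bound by RFX and by NF-Y, at which CIITA is recruited. RefSeq promoter entries on GRCm38.p6 matched 4 of the 8 members, and the 150 bases before the start are shown for the 3 in which searched letters occurred. Capitals mark AACNNATG (X box letters), TGATTGG (Y box letters) or TGACGTCA (cyclic AMP response element letters), each searched on both strands; the letters were chosen with these promoters in view. The windows are chr17:34287824-34287973 on the reverse strand for H2-Aa, chr17:34305717-34305866 on the forward strand for H2-Eb1 and chr17:34153041-34153190 on the forward strand for H2-DMb1, whose start in the gene annotation used below lies inside its window.
H2-Aa: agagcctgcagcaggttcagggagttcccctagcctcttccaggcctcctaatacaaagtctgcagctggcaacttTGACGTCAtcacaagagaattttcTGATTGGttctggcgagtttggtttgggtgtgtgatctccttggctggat
H2-Eb1: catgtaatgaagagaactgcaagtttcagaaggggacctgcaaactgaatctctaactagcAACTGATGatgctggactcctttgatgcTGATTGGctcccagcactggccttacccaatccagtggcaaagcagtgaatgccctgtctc
H2-DMb1: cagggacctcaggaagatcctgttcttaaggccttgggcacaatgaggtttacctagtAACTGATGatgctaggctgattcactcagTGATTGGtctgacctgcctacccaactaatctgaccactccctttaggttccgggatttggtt
In H2-Eb1 the X box letters began 89 bp and the Y box letters 61 bp before the start, and in H2-DMb1 they began 92 bp and 63 bp before it. H2-Aa held the Y box letters 50 bp and the cyclic AMP response element letters 74 bp before the start. Neither start listed for H2-DMa held any of the 3 sets of letters in this window. Both H2-DMa windows, chr17:34122682-34122831 and chr17:34125368-34125517, lie inside the gene span of the annotation used below, so the bases before its annotated start were not searched. Among 32851 mouse promoter windows, each longer than the 150 bases printed here, 7.71% held the X box letters, 7.23% the Y box letters and 1.55% the cyclic AMP response element letters. X box letters followed by Y box letters on the same strand within 50 bp were found in 24 windows (0.0731%). These matches describe the letters only.

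The class II chain and DM genes lie together in the MHC on chromosome 17 of GRCm38. H2-DMa (ENSMUSG00000037649) spans 34119541 to 34139101 and H2-DMb1 (ENSMUSG00000079547) 34153072 to 34160230, both on the forward strand. H2-Ab1 (ENSMUSG00000073421) spans 34257689 to 34269419 on the forward strand, H2-Aa (ENSMUSG00000036594) 34282744 to 34287823 on the reverse strand, and H2-Eb1 (ENSMUSG00000060586) 34305867 to 34316674 on the forward strand. The other members lie elsewhere: Cd74 (ENSMUSG00000024610) on chromosome 18 from 60803848 to 60812652, Ciita (ENSMUSG00000022504) on chromosome 16 from 10480059 to 10528418, and Cd86 (ENSMUSG00000022901) on the reverse strand of chromosome 16 from 36603869 to 36666081. Of the 75-base stretches in H2-DMb1 transcripts, 254 of 1604 (15.8%) also occur in H2-DMb2, so the split of reads between this pair is uncertain. The other 7 members shared none with another gene.

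Library totals lay between 66540022 and 120554468 counts (median 93075927), so that 3 counts, used as a floor, were 0.0226 to 0.0509 CPM. Ephb4, the targeted gene, ranged from 2.32 to 33.4 CPM and from 13.1 to 65.1 CPM in Ephb4 control mice given PBS and bleomycin, and from 4.01 to 23.6 CPM and from 4.93 to 14.0 CPM in the corresponding Ephb4 CKO mice, with overlap in both genotype comparisons. By the labels each group held mice of both sexes, and control PBS mouse 1 was the only male of its group. Sex-linked genes went against the labelled sex in 3 libraries, those of mouse 2 of the control bleomycin group and of mice 1 and 2 of the CKO bleomycin group. The animal numbers in the sample titles begin with 11 in 8 mice and with 12 in 9 mice, here called number series 11 and 12. Series 12 holds 1 of 4 Ephb4 control PBS, 4 of 4 Ephb4 control bleomycin, 2 of 5 Ephb4 CKO PBS and 2 of 4 Ephb4 CKO bleomycin mice, and which sequencing run each library belonged to is not given in the sources used here. The libraries are labelled as primary fibroblasts, but the summed CPM of 10 fibroblast genes ranged from 11.9 to 10500 and that of 11 macrophage genes from 1250 to 41300. In bulk libraries such as these, fewer cells of a type and less RNA per cell cannot be told apart.

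Counts per kilobase of exon put the members in a wide order of levels. Cd74 was the highest, with a median over the 17 libraries of 52.9 CPM per kb, and H2-DMb1 followed with 17.7. H2-DMa (6.70) and H2-Ab1 (6.62) were close, and H2-Eb1 (3.33), H2-Aa (2.66) and Cd86 (2.11) came next, with Ciita lowest at 0.101 CPM per kb. Cd74 exceeded H2-DMb1 in 15 of 17 libraries, H2-DMb1 exceeded H2-DMa in 17, H2-Ab1 exceeded H2-Eb1 in 16 and Cd86 exceeded Ciita in 17. H2-DMa was above H2-Ab1 in 12 libraries, H2-Eb1 above H2-Aa in 8 and H2-Aa above Cd86 in 10, so these neighbours did not keep their order from library to library. In Ephb4 control mice given bleomycin the median of H2-Eb1 was 0.590 and that of H2-Aa 0.719 CPM per kb, below Cd86 at 1.15.

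H2-Aa, the I-A alpha chain gene, had levels of 1.67, 26.2, 23.8 and 20.5 CPM in Ephb4 control mice 1 to 4 given PBS and 8.65, 4.32, 1.14 and 0.720 CPM in Ephb4 control mice 1 to 4 given bleomycin. In Ephb4 CKO mice it was at 39.6, 1.24, 20.4, 6.96 and 161 CPM after PBS and at 10.1, 7.73, 39.8 and 25.4 CPM after bleomycin. Its 224-fold range was set by CKO PBS mouse 5 at the top and control bleomycin mouse 4 at the bottom. H2-Ab1, its partner chain, was at 4.85, 23.6, 27.3 and 17.0 CPM and at 18.8, 6.15, 2.50 and 2.58 CPM in the same control groups. In Ephb4 CKO mice H2-Ab1 was at 79.8, 3.36, 23.6, 7.89 and 114 CPM after PBS and at 9.65, 7.85, 43.2 and 20.4 CPM after bleomycin. CKO PBS mice 1 and 5 stood above all other libraries for H2-Ab1, and the 4 groups overlapped for both I-A chains. The ratio of the alpha to the beta chain count was not constant: it ran from 0.279 in control bleomycin mouse 4 to 1.41 in CKO PBS mouse 5, and was 0.496 in CKO PBS mouse 1.

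H2-Eb1, the I-E beta chain gene, was at 1.12, 18.6, 15.4 and 7.45 CPM in Ephb4 control mice given PBS and at 6.48, 1.63, 0.663 and 0.617 CPM in those given bleomycin. Its levels in Ephb4 CKO mice were 11.6, 0.475, 14.2, 2.25 and 49.9 CPM after PBS and 3.11, 3.85, 25.3 and 9.50 CPM after bleomycin. C57BL/6 mice lack a working I-E alpha chain, and H2-Ea-ps, the gene listed for it, had 0 counts in all 17 libraries, which allows at most the floor given above. Cd74, the invariant chain gene, was at 39.1, 94.1, 108 and 96.2 CPM after PBS and at 88.9, 30.9, 8.87 and 7.17 CPM after bleomycin in Ephb4 control mice. In Ephb4 CKO mice Cd74 was at 117, 28.6, 99.8, 43.5 and 494 CPM after PBS and at 61.4, 39.0, 182 and 106 CPM after bleomycin. For H2-Eb1 and Cd74, as for H2-Aa, CKO PBS mouse 5 was the highest of all libraries, and control bleomycin mice 3 and 4 were among the lowest.

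H2-DMa and H2-DMb1, the peptide exchange genes, varied far less. H2-DMa was at 16, 34.5, 19.3 and 30.2 CPM in Ephb4 control mice given PBS, at 5.33, 20.8, 19.9 and 17.5 CPM in those given bleomycin, and in Ephb4 CKO mice at 47.8, 13.6, 48.7, 23.1 and 31.1 CPM after PBS and at 27.5, 14.2, 39.3 and 31.9 CPM after bleomycin. H2-DMb1 was at 18.8, 57.5, 16.7 and 35.3 CPM, at 10.8, 16.3, 17.1 and 17.3 CPM, at 69.9, 15.4, 55.4, 29.7 and 45.8 CPM and at 30.1, 25.0, 50.4 and 34.7 CPM in the same order of groups. The DM genes covered a 9.13-fold and a 6.49-fold range over the libraries, against 45.6-fold for H2-Ab1, 105-fold for H2-Eb1 and 68.9-fold for Cd74. The SD of log2 CPM within groups was 0.74 for H2-DMa and 0.67 for H2-DMb1, and between 1.32 (Cd74) and 1.97 (H2-Aa) for the chains and Cd74.

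Ciita, the transactivator gene, was at 0.295, 3.72, 4.66 and 1.42 CPM and at 1.97, 0.479, 0.120 and 0.196 CPM in Ephb4 control mice given PBS and bleomycin. In Ephb4 CKO mice it was at 3.17, 0, 3.01, 0.430 and 4.37 CPM after PBS and at 0.384, 0.966, 4.65 and 0.928 CPM after bleomycin. The 0 in CKO PBS mouse 2 was a count of 0, which allows up to 0.0509 CPM. Cd86, the costimulatory ligand gene, was at 3.95, 10.3, 6.53 and 10.1 CPM, at 1.73, 5.17, 4.66 and 3.77 CPM, at 12.3, 3.07, 10.7, 13.9 and 37.8 CPM and at 16.8, 2.85, 7.71 and 9.55 CPM in the 4 groups in the order used for the DM genes. CKO PBS mouse 5 was again the highest library for Cd86, and control bleomycin mouse 1 the lowest.

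**Figure D1:**
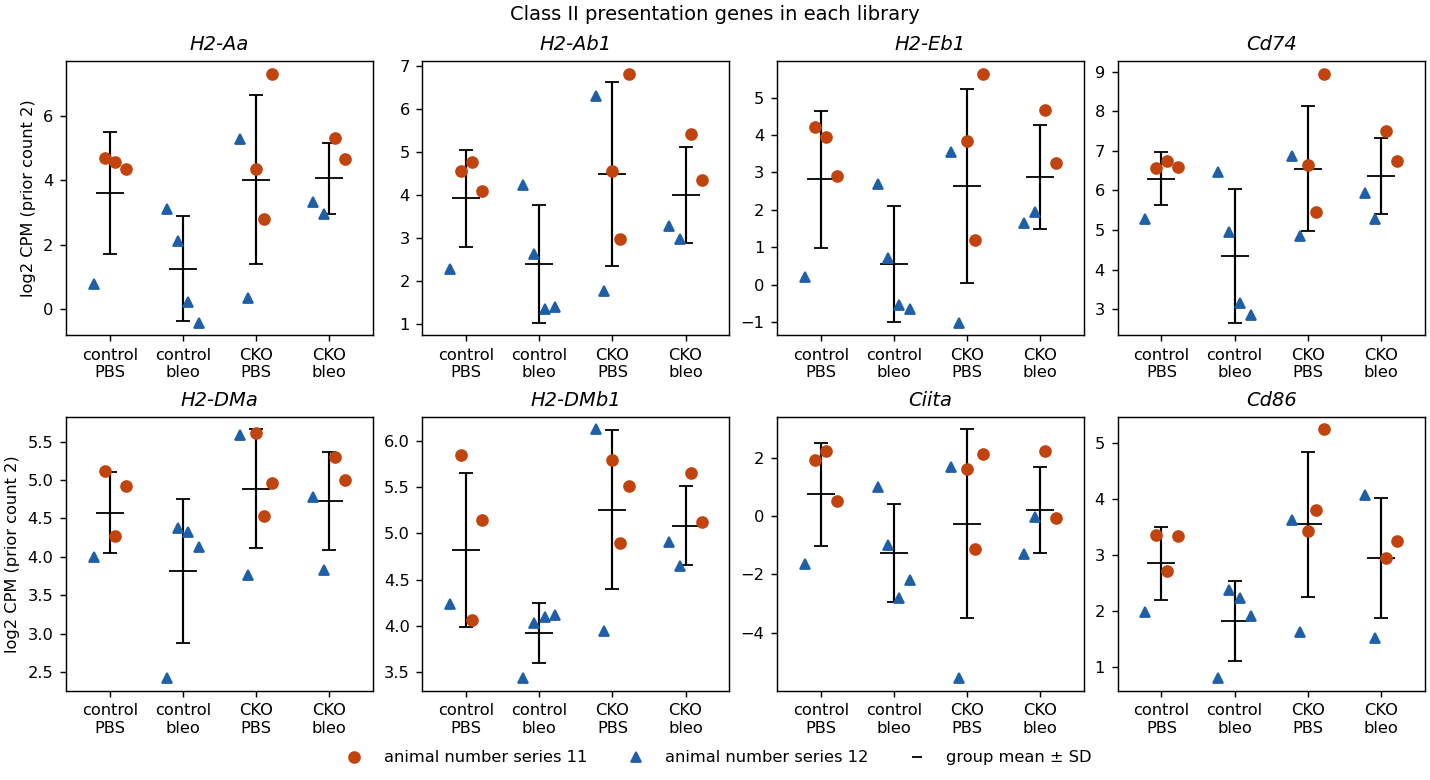
Log2 CPM (prior count of 2, y axis) of the 8 members in each library by group (x axis), 1 point per mouse, with circles for number series 11, triangles for series 12 and bars for the group mean ± SD. All 4 Ephb4 control bleomycin mice are of series 12, and H2-DMb1 is the 1 member whose Ephb4 CKO and control libraries given bleomycin do not overlap.

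The first comparison was bleomycin with PBS in Ephb4 control mice. All 7 members tested had lower fitted levels after bleomycin, from H2-Aa with a log2 fold change of -2.28 (SE 1.20) and H2-Eb1 with -2.18 (SE 1.21) to H2-DMa with -0.65 (SE 0.46), and none passed the test. Mean H2-Aa was 18.1 ± 11.2 CPM (SD, n = 4) after PBS and 3.71 ± 3.66 CPM (SD, n = 4) after bleomycin. Cd74 was 84.2 ± 30.6 CPM (SD, n = 4) and 34.0 ± 38.2 CPM (SD, n = 4), with -1.31 (SE 0.89) on the log2 scale. H2-Ab1 had -1.27 (SE 0.98), H2-DMb1 -1.06 (SE 0.44) and Cd86 -1.01 (SE 0.64), and Ciita had -1.81 (SE 1.28) in the fit without the filter. The median of the 7 was -1.27, beside -0.06 over all 10481 genes tested, of which 44.5% had a higher fitted level.

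In the quasi-likelihood test of edgeR, Benjamini-Hochberg adjusted over all genes tested, 0 of the 7 members had an adjusted p under 0.05 (smallest 0.329, H2-DMb1), and 0% of all genes did. At an unadjusted p under 0.05, 1 member was lower (H2-DMb1), as were 7.98% of all genes. By DESeq2 3 members were lower at that threshold beside 9.65% of all genes, and by limma voom 1 beside 5.85%. The bleomycin libraries lay wholly below the PBS libraries in 0 members and in 3.2% of all genes. With the number series as a covariate the log2 fold change was between -0.68 (H2-DMb1) and 0.06 (H2-Eb1) over the 7 members, with H2-Aa at -0.26 and Cd74 at -0.10. Series and treatment cannot be told apart here beyond control PBS mouse 1, the only Ephb4 control PBS mouse of series 12, whose H2-Aa was 1.67 CPM against 20.5 to 26.2 CPM in the other PBS mice. That mouse is also the only male of its group by label, so series and sex cannot be told apart for it.

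Control bleomycin mouse 1 differed from its group in opposite ways for the 2 kinds of member. It was the highest of the 4 for H2-Aa, H2-Ab1, H2-Eb1, Cd74 and Ciita and the lowest for H2-DMa, H2-DMb1 and Cd86. Its ratio of H2-Aa to H2-DMa was 1.62, against 0.0411 to 0.208 in the other 3 mice. Its macrophage marker sum was 1250 CPM, against 13700 to 17600 CPM in those mice. Its interstitial macrophage sum was 8.17 CPM and its dendritic cell sum 12 CPM, and each of these sums was the lowest of all 17 libraries. By mean log2 CPM, however, its dendritic cell markers were at -1.43, above the -1.84 to -1.67 of the other 3 mice. Its monocyte sum of 134 CPM was the highest of all 17 libraries, but by mean log2 CPM these markers were at 1.17, against 2.33 to 2.95 in the other 3 mice. Its fibroblast sum was 9330 CPM, within the 4350 to 10500 CPM of its group. Its sum of 7 alveolar type 2 cell markers was 120 CPM, against 46.3 to 46.9 CPM in the other 3 mice. The part of these in the result was not tested. Without this mouse the log2 fold change of bleomycin versus PBS was -3.08 for H2-Aa, -3.41 for H2-Eb1, -2.38 for Cd74 and -2.24 for H2-Ab1 but -0.33 for H2-DMa, with 3 members at an unadjusted p under 0.05 beside 3.82% of all genes, and a smallest adjusted p of 0.628 among these by edgeR's quasi-likelihood test.

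The second comparison was Ephb4 CKO with control mice after bleomycin. It sets cultures of injured lungs from mice given 4-hydroxytamoxifen, to delete Ephb4 in Col1a2-expressing cells, against those from mice given vehicle. Fitted levels of all 7 members were higher in Ephb4 CKO, from H2-Aa at a log2 fold change of 2.48 (SE 1.21) and H2-Eb1 at 2.15 (SE 1.21) to H2-DMa at 0.83 (SE 0.46), and none passed the test. H2-DMb1 averaged 15.4 ± 3.11 CPM (SD, n = 4) in control and 35.0 ± 11 CPM (SD, n = 4) in CKO mice, which gave 1.19 (SE 0.44) on the log2 scale. Cd74 had a log2 fold change of 1.52 (SE 0.90), H2-Ab1 1.43 (SE 0.98), Cd86 1.27 (SE 0.64) and Ciita 1.26 (SE 1.26, fit without the filter). The median of the 7 was 1.43, beside 0.01 over all genes.

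By the Benjamini-Hochberg adjusted quasi-likelihood test of edgeR, 0 of 7 members had an adjusted p under 0.05 (smallest 0.218, H2-DMb1) and 0% of all genes did. At an unadjusted p under 0.05 there was 1 higher member, H2-DMb1, beside 11% of all genes. By DESeq2 there were 4, beside 13.7% of all genes, and by limma voom 2, beside 11%. With the labelled sex as a covariate edgeR gave 4, beside 10.7%, but sex-linked genes went against that label in 3 libraries of these groups. H2-DMb1 was the 1 member whose groups did not overlap, and 11% of all genes were non-overlapping in that direction, so neither the count of edgeR's main fit nor this one stood apart from the background. The macrophage marker sum (11 of 11 genes kept) was 1250 to 17600 CPM in the Ephb4 control and 18500 to 40900 CPM in the Ephb4 CKO libraries given bleomycin, and the fibroblast sum (8 of 10 kept) was 4350 to 10500 and 13.5 to 1230 CPM. The number series as a covariate gave log2 fold changes of 1.14 for H2-Aa, 0.53 for H2-Eb1, 0.58 for Cd74 and 0.93 for H2-DMb1. For the 3 chains and Cd74 the overlap came from control bleomycin mouse 1, since the other 3 control mice lay below all 4 CKO mice. The share of all genes that separate in this way without that mouse was not determined, so this separation has no background beside it. Without that mouse H2-Aa was at 3.26, H2-Eb1 at 3.36, Cd74 at 2.57 and H2-Ab1 at 2.37 on the log2 scale, and these 4 members had an unadjusted p under 0.05 beside 4.55% of all genes, with an adjusted p of 0.480 by edgeR's quasi-likelihood test.

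The third comparison was Ephb4 CKO with control mice after PBS. All 7 members had a higher fitted level in Ephb4 CKO, by a log2 fold change between 0.39 (H2-DMa, SE 0.44) and 1.35 (H2-Aa, SE 1.12), with a median of 0.89 beside -0.02 over all genes, and none passed the test. Mean H2-Aa was 45.9 ± 66.2 CPM (SD, n = 5) in Ephb4 CKO mice, and mean Cd74 was 157 ± 192 CPM (SD, n = 5). Ciita was at -0.18 (SE 1.17) in the fit without the filter. By the Benjamini-Hochberg adjusted quasi-likelihood test of edgeR 0 members and 0% of all genes had an adjusted p under 0.05, and at an unadjusted p under 0.05 there were 0 members by edgeR, DESeq2 or limma voom beside 1.43%, 2.28% and 0.181% of all genes that were higher. The groups overlapped in all members, while 0.0286% of all genes were higher without overlap. CKO PBS mouse 5 set the sign for 3 members: without it the log2 fold change was -0.08 for H2-Aa, -0.58 for H2-Eb1 and -0.22 for Cd74. Without CKO PBS mice 1 and 5 together, a setting chosen after the values were seen, H2-Ab1 was at -0.67 and H2-Aa at -0.95.

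Within Ephb4 CKO mice, bleomycin libraries had lower fitted levels than PBS libraries for all 7 members, between -1.17 (H2-Ab1, SE 0.94) and -0.22 (H2-DMa, SE 0.44) on the log2 scale, with a median of -0.69 beside -0.03 over all genes. By the Benjamini-Hochberg adjusted quasi-likelihood test of edgeR 0 members and 0% of all genes had an adjusted p under 0.05. At an unadjusted p under 0.05 there were 0 members by edgeR, DESeq2 or limma voom beside 0.716%, 1.29% and 0.162% of all genes that were lower, and 0.00954% of all genes were lower without overlap, with 0 members among them. This sign also rested on the highest mice, since without CKO PBS mice 1 and 5 all 7 members had a higher fitted level after bleomycin, from 0.01 (H2-DMa) to 1.14 (H2-Aa). The interaction of genotype and bleomycin, which tests whether the effect of bleomycin differed between genotypes, gave fitted values from 0.10 to 1.59 for the 7 members. In that test 0 members and 0% of all genes had an adjusted p under 0.05 (smallest 0.916 among the members by edgeR), and at an unadjusted p under 0.05 there were 0 members by edgeR, DESeq2 or limma voom beside 1.89%, 2.75% and 1.14% of all genes that were higher. All these comparisons share groups, so the signs of the members are not independent between them.

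**Figure D2:**
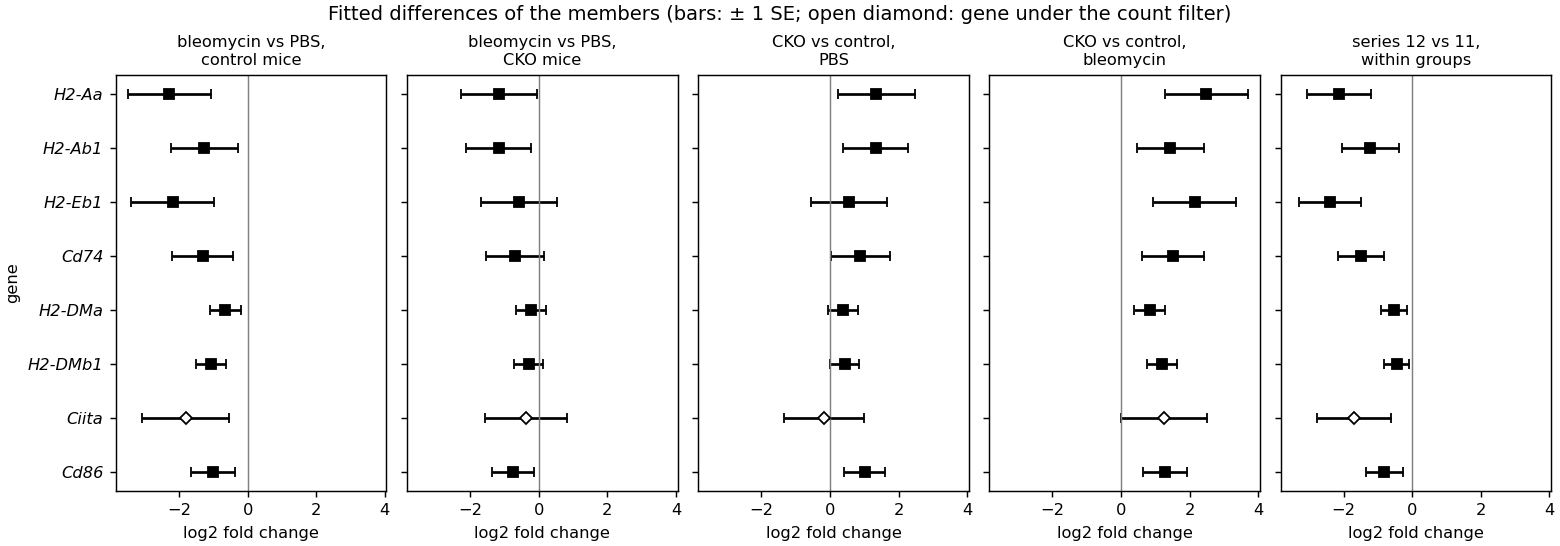
Fitted log2 fold change (x axis) of each member (y axis) in the 4 group comparisons and between the number series within groups, with bars of ± 1 SE; open diamonds mark Ciita, which was under the count filter. Values lie below 0 after bleomycin in Ephb4 control mice (H2-Aa -2.28) and above 0 in Ephb4 CKO versus control mice given bleomycin (H2-Aa 2.48), with SE bars as wide as 1.28 for Ciita.

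Differences of like size lay between the animals' number series. Within groups, mice of series 12 had lower fitted levels than mice of series 11 for all 7 members, and none passed the adjusted test. The log2 fold change was -2.40 (SE 0.91) for H2-Eb1, -2.13 (SE 0.94) for H2-Aa, -1.49 (SE 0.68) for Cd74, -1.22 (SE 0.83) for H2-Ab1 and between -0.81 and -0.45 for Cd86, H2-DMa and H2-DMb1. This comparison was added after the values were seen. By the Benjamini-Hochberg adjusted quasi-likelihood test of edgeR 0 members had an adjusted p under 0.05 (smallest 0.300, H2-Eb1), beside 0.0572% of all genes. At an unadjusted p under 0.05, 3 members were lower (H2-Aa, H2-Eb1 and Cd74), beside 6.92% of all genes. By DESeq2 there were 3, beside 8.68% of all genes, and by limma voom 0, beside 4.67%. The count by edgeR was 6 without CKO PBS mouse 1, beside 8.73% of all genes, and 0 without CKO PBS mouse 5 or without control PBS mouse 1, beside 7.02% and 4.94%.

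B cell markers split the libraries by the same line. The summed CPM of Cd79a, Cd79b, Ms4a1 and Pax5, 0 of them past the count filter, ran from 1.46 to 32.9 CPM in the 8 mice of series 11 and from 0 to 0.645 CPM in the 9 of series 12, without overlap, and Ms4a1 was at 0 in 5 of the 17. By group the sum was 0.0937 to 31 CPM in Ephb4 control mice given PBS, 0.158 to 0.645 CPM in those given bleomycin, and in Ephb4 CKO mice 0.219 to 32.9 CPM after PBS and 0 to 24.3 CPM after bleomycin. The 3 mice of series 11 with the lowest sums, CKO PBS mouse 4 (1.46 CPM), CKO bleomycin mouse 4 (3.48 CPM) and control PBS mouse 4 (5.30 CPM), also had the lowest Ciita of that series. In those 8 libraries the B cell score correlated with Ciita at r = 0.98 (rho = 0.62) and with H2-Eb1 at r = 0.89 (rho = 0.86), with exact permutation p adjusted over 60 relations of 0.00744 and 0.00607 for r and 0.203 and 0.0357 for rho. The other 6 members, with r from 0.06 (Cd86) to 0.75 (H2-Ab1) and rho from 0.29 to 0.76, passed by neither measure (smallest adjusted exact permutation p = 0.0559 for r and 0.0882 for rho). With the B cell score as a covariate (a setting chosen once the values had been seen), bleomycin versus PBS in Ephb4 control mice had a log2 fold change of -0.48 for H2-Aa, -0.19 for H2-Eb1 and -0.30 for Cd74, and the genotype comparison after bleomycin one of 1.51, 1.02 and 0.79.

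H2-Ob and H2-Oa encode the DO heterodimer, a modulator of DM, and H2-Ob is known from B cells in particular. H2-Ob was at 0.497 to 8.84 CPM in series 11 and at 0 to 0.106 CPM in series 12. H2-Eb2, a further E beta chain gene, was at 0.143 to 2.98 CPM and at 0 to 0.0548 CPM. Both were under the count filter, and in the fit without it edgeR's quasi-likelihood test gave the series difference an adjusted p of 0.107 for H2-Ob and 0.131 for H2-Eb2. The members did not split in this way, since CKO PBS mouse 1 and control bleomycin mouse 1, both of series 12, had H2-Ab1 levels of 79.8 and 18.8 CPM with B cell sums of 0.219 and 0.645 CPM. Of the 8 dendritic cell markers, Cd209a was at 0 in 16 of 17 libraries, Flt3 in 9 and Xcr1 in 7, with Xcr1 reaching at most 0.157 CPM. The others were detected more widely: Clec9a ranged from 0.0188 to 40 CPM (median 3.06), Zbtb46 from 0.831 to 8.40 CPM, Batf3 from 0.195 to 4.01 CPM and Irf8, which macrophages and B cells also express, from 5.33 to 151 CPM, with 0 libraries at 0 for each, and Ccr7 reached 7.69 CPM with 3 libraries at 0.

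**Figure D3:**
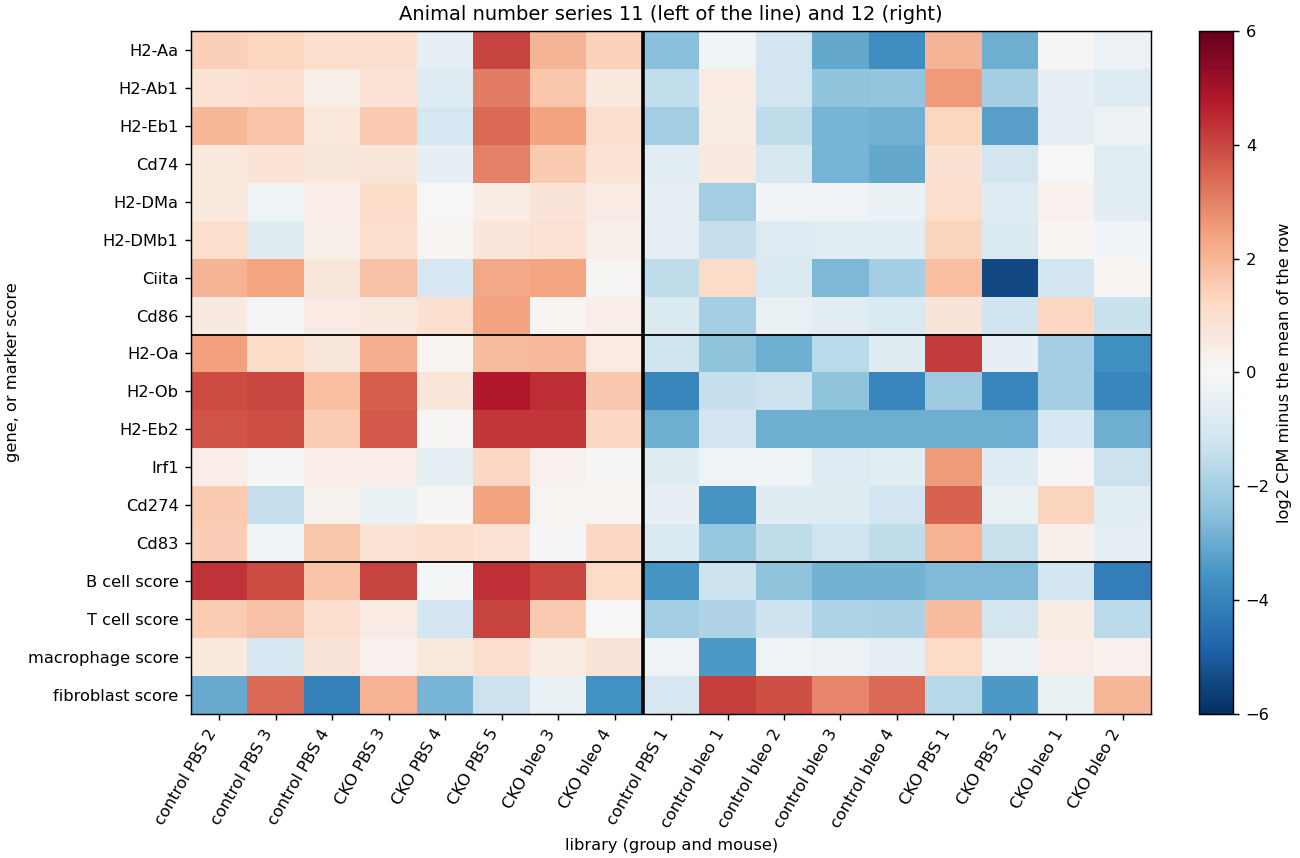
Log2 CPM minus the row mean (colour, from -6 to 6) of the members, 6 pathway genes and 4 marker scores (rows) in each library (columns), with number series 11 left and series 12 right of the line. The B cell score, H2-Ob and H2-Eb2 change at the line, whereas CKO PBS mouse 1, right of it, is high for H2-Ab1, Irf1 and Cd274.

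CKO PBS mice 1 and 5, the highest for H2-Ab1, had some companions in common and differed in others. CKO PBS mouse 1 was the 1 library with more than 0.111 CPM of Ifng, the interferon-gamma gene, at 4.80 CPM. In it Irf1 was at 365 CPM, Socs1 at 35.6 CPM and Cd274 at 1170 CPM, the highest of all libraries for each of these interferon-gamma responsive genes. CKO PBS mouse 5 had Ifng at 0.111 CPM, Irf1 at 146 CPM and Socs1 at 9.64 CPM, the second highest library for each. Its interstitial macrophage sum was 2710 CPM, against 8.17 to 951 CPM in all others, and its T cell sum was 30.9 CPM, with CKO PBS mouse 1 at 14.0 CPM. H2-Oa was at 9.21 CPM in CKO PBS mouse 1 and at 1.87 CPM in CKO PBS mouse 5. Their part in the class II levels was not tested.

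Across libraries the members differed in how closely they varied together. Rank correlations of log2 CPM over the 17 libraries were 0.92 to 0.97 among H2-Aa, H2-Ab1, H2-Eb1 and Cd74, 0.87 to 0.95 between these and Ciita, and 0.90 between H2-DMa and H2-DMb1, against 0.51 to 0.52 between Ciita and the DM genes and 0.37 between Ciita and Cd86. The 3 chains and Cd74 lay between, with 0.64 to 0.72 to the DM genes and 0.53 to 0.61 to Cd86, and Cd86 had 0.73 to 0.78 to the DM genes. These libraries share cell content and handling, so the values describe joint variation only. Ciita with H2-Eb1 had r = 0.93 and rho = 0.95, both with permutation p = 1e-05, the smallest that 100000 permutations can give, and an adjusted p of 0.00012 over 60 relations. The rank correlation was 0.87 for H2-Aa, 0.92 for H2-Ab1 and 0.87 for Cd74 (r = 0.86, 0.86 and 0.77), with permutation p adjusted of at most 0.000171 for rho. Without the 2 libraries farthest from the median of Ciita, r was 0.94 for H2-Eb1, 0.85 for H2-Aa, 0.89 for H2-Ab1 and 0.82 for Cd74. H2-DMb1 had r = 0.58 and rho = 0.51 with Ciita, with an adjusted permutation p of 0.0425 for r and 0.0882 for rho.

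The relation with Ciita was recomputed within the number series. In the 9 mice of series 12 rho was 0.97 for H2-Eb1, 0.90 for H2-Ab1, 0.83 for H2-Aa and 0.80 for Cd74, with adjusted exact permutation p of 0.000992, 0.00936, 0.031 and 0.0415. In the 8 mice of series 11 rho was 0.81, 0.86, 0.60 and 0.69 in the same order, and only that for H2-Ab1 had an adjusted exact permutation p under 0.05 (0.0357). Pearson's r in series 11 was 0.90 for H2-Eb1, 0.77 for H2-Ab1, 0.68 for H2-Aa and 0.66 for Cd74, with adjusted exact permutation p of 0.00744, 0.0559, 0.146 and 0.153. H2-Aa and Cd74 thus passed by neither measure in series 11, H2-Eb1 by r alone and H2-Ab1 by rho alone. In series 12 r was 0.91, 0.81, 0.80 and 0.62 in the same order, with adjusted exact permutation p of 0.00149, 0.032, 0.0297 and 0.152.

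H2-DMa, H2-DMb1 and Cd86 followed the macrophage markers more than Ciita. With the macrophage score, the mean log2 CPM of 11 genes that include Ptprc, Lyz2 and Cd68, rho was 0.74 for H2-DMa, 0.83 for H2-DMb1 and 0.77 for Cd86 (r = 0.85, 0.78 and 0.74), with adjusted permutation p for rho of 0.00475, 0.000533 and 0.00229. For H2-Aa, H2-Ab1, H2-Eb1 and Cd74 r was 0.27 to 0.40 and rho 0.50 to 0.66. The adjusted permutation p for rho was 0.0195 for H2-Aa, 0.0415 for Cd74, 0.0704 for H2-Ab1 and 0.0927 for H2-Eb1, and none passed for r. Without the 2 libraries farthest from the median, among them control bleomycin mouse 1, r was 0.83 to 0.91 for these members. In the same libraries r was 0.72 for H2-DMa, 0.84 for H2-DMb1 and 0.78 for Cd86, so this difference between the members was not seen there. Within series 12 rho was 0.85 for H2-DMb1 (adjusted exact permutation p = 0.0243) and 0.62 for H2-DMa and Cd86 (0.161 for each), while r was 0.90 for H2-DMa, 0.78 for H2-DMb1 and 0.72 for Cd86 (adjusted exact permutation p = 0.0117, 0.120 and 0.0671). In series 11 rho was -0.17 for H2-DMa, -0.02 for H2-DMb1 and 0.52 for Cd86 and r was 0.45, 0.66 and 0.61, of which none passed the adjusted test. Without the 2 libraries of series 11 farthest from the median of the score, r was -0.74, -0.72 and 0.10. With the macrophage score as a covariate, the log2 fold change between genotypes after bleomycin was -0.02 for H2-DMa, 0.47 for H2-DMb1 and 0.35 for Cd86, and 2.88 for H2-Aa, 3.26 for H2-Eb1 and 2.42 for Cd74. In that fit 0 members had an unadjusted p under 0.05 by edgeR's quasi-likelihood test, beside 1.44% of all genes. The score was 5.23 to 8.45 in the control and 8.94 to 9.46 in the CKO libraries given bleomycin. The 2 groups thus share no range of the score, and the adjusted differences are extrapolations.

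**Figure D4:**
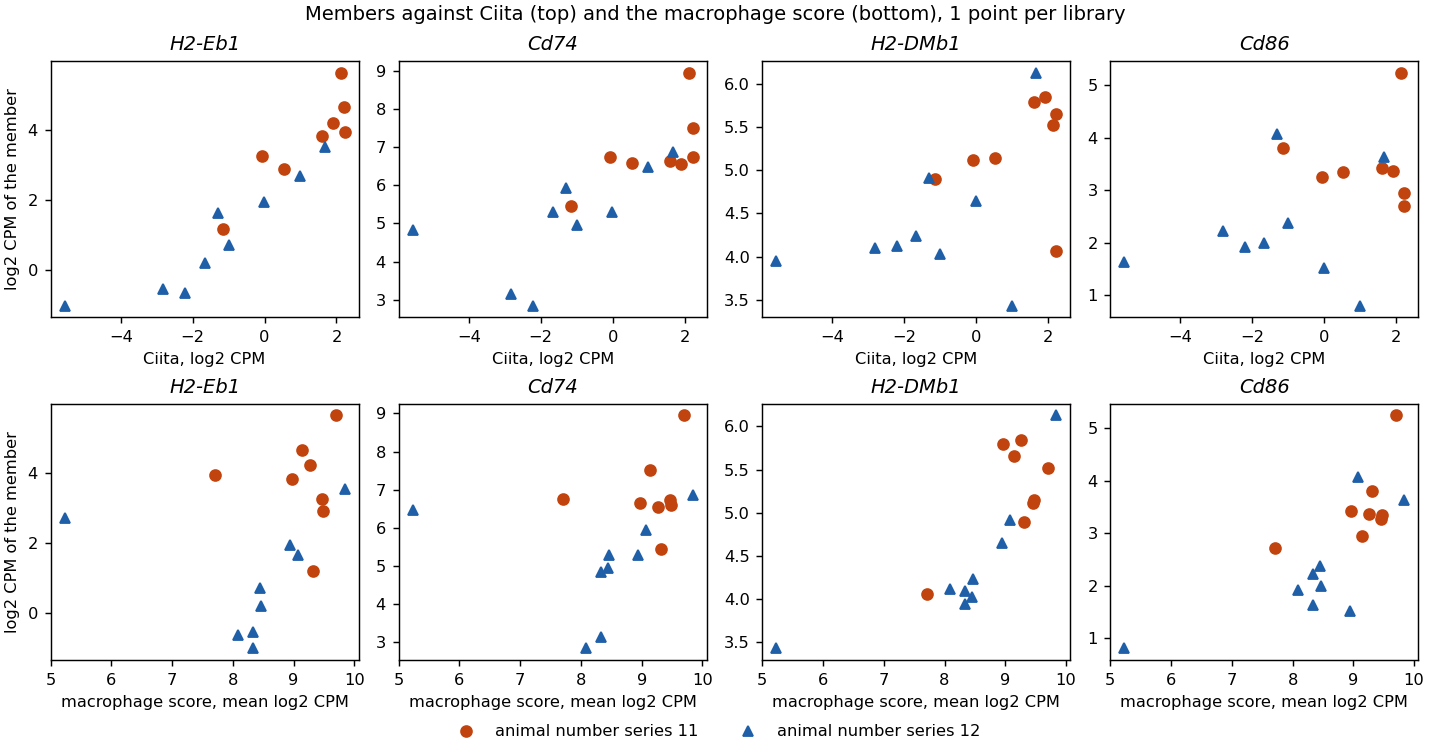
Log2 CPM of H2-Eb1, Cd74, H2-DMb1 and Cd86 (y axis) against log2 CPM of Ciita (top) and against the macrophage score, the mean log2 CPM of 11 genes (bottom), 1 point per library, with circles for series 11 and triangles for series 12. H2-Eb1 rises with Ciita (rho = 0.95) and H2-DMb1 with the macrophage score (rho = 0.83), and the library at the far left of the bottom panels is control bleomycin mouse 1.

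Among the 10474 other genes tested, those most like the mean log2 CPM of the 7 members by Spearman's rho over 17 libraries were Traf1 (0.975), Prdm1 (0.961), Arl5c (0.951), Glrx (0.949) and Prdx5 (0.941). Traf1, an adaptor of TNF receptor signalling, ranged from 0.669 to 62.0 CPM, and Prdm1, a transcriptional repressor, from 2.57 to 44.6 CPM. In all, 12 genes had a rho over 0.9 and 177 over 0.8, beside a median of -0.01.

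The wider class II pathway was described with 34 further genes, of which 25 passed the count filter, and 0 of them had an adjusted p under 0.05 by edgeR's quasi-likelihood test in any comparison. After bleomycin in Ephb4 control mice 23 of the 25 had a lower fitted level (median -0.41), while 44.5% of all genes had a higher one. Of these 23, 3 had an unadjusted p under 0.05, beside the 7.98% of all genes given above. In Ephb4 CKO versus control mice given bleomycin 20 had a higher fitted level (median 0.52), as did 50.7% of all genes, with 5 higher, beside 11% of all genes, and 1 lower at an unadjusted p under 0.05. In the genotype comparison after PBS 16 were higher (median 0.26), as were 46.4% of all genes, with 1 at an unadjusted p under 0.05 beside 1.43%, and for bleomycin versus PBS in Ephb4 CKO mice 19 were lower (median -0.11), while 44.2% of all genes were higher, with 1 at an unadjusted p under 0.05 beside 0.716%.

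The factors that bind class II promoters varied little. Rfx5 ranged from 7.12 to 20.6 CPM and Rfxap, another subunit of RFX, from 4.54 to 6.86 CPM over the 17 libraries, while H2-Aa covered its 224-fold range. The 6 factors kept had a median log2 fold change of -0.36 after bleomycin in Ephb4 control mice and 0.03 in Ephb4 CKO versus control mice given bleomycin. Nfya, a subunit of NF-Y, was at 18.5 to 25.5 CPM in Ephb4 control mice given bleomycin and at 36.4 to 40.8 CPM in Ephb4 CKO mice given bleomycin, without overlap, a log2 fold change of 0.74 (SE 0.20) with an adjusted p of 0.195 by edgeR's quasi-likelihood test. In that comparison 11% of all genes were higher without overlap, and 6 of the 25 pathway genes kept did not overlap in either direction. Of the other NF-Y subunits, Nfyb had -0.53 (SE 0.23) and Nfyc -0.14 (SE 0.14) on the log2 scale, with adjusted p of 0.230 and 0.552 by edgeR's quasi-likelihood test.

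The 7 endosomal processing genes were all lower in fitted level after bleomycin in Ephb4 control mice (median -0.68) and all higher in Ephb4 CKO versus control mice given bleomycin (median 1.22). Of all genes, 44.5% and 50.7% had a higher fitted level in these comparisons. At an unadjusted p under 0.05 by edgeR, 1 of the 7 was lower and 2 were higher, beside 7.98% and 11% of all genes. None had an adjusted p under 0.05. Ifi30, a thiol reductase that unfolds antigens, had log2 fold changes of -1.26 and 1.42 (SE 0.55 for each) in these comparisons. Ctss, a protease that trims the invariant chain, had 1.57 (SE 0.84) in the second and ranged from 58.9 CPM in control bleomycin mouse 1 to 8090 CPM in CKO PBS mouse 5. Cd83, which slows the removal of class II and CD86 from the surface, was at 7.16, 35.6, 11 and 41.2 CPM in Ephb4 control mice given PBS and at 2.66, 4.55, 5.59 and 4.49 CPM in those given bleomycin, without overlap. In that comparison 3.2% of all genes were lower without overlap, and Cd83 was the 1 such gene among the 25 pathway genes kept. Its log2 fold change was -2.46 (SE 0.66), with an adjusted p of 0.268 by edgeR's quasi-likelihood test, and that between genotypes after bleomycin was 1.97 (SE 0.65), with an adjusted p of 0.208. Of the interferon-gamma pathway, 5 of 7 genes were kept, with medians of -0.29 and 0.35 in the same comparisons.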

How the data were processed

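Gene counts of 17 cultures of mouse lung fibroblasts were analysed, with groups taken from the sample labels; all 17 sample columns matched a labelled mouse (0 left over). The 8 members, the gene lists and the comparisons were chosen with earlier results of these data known. The counts were made by the authors and deposited without normalization: 75-bp paired reads of stranded total RNA libraries were trimmed with Cutadapt (1.18 per the labels, another version in the methods of the study), aligned to GRCm38 with HISAT2 2.1.0 in strand-specific mode, assembled with StringTie and converted to whole-number counts from transcript coverage, so that overlapping or near-identical genes share counts as StringTie divided them. The authors tested with DESeq2 and a batch term; the batch of each library is not given in the sources used here, so their term could not be fitted. The sample columns of the table stand in 2 alphabetical runs, and DESeq2 with the run as a covariate was an alternative; what the runs mean is not stated.

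CPM were computed on TMM library sizes, with log2 CPM at a prior count of 2. Genes with CPM over 10 in at least 2 libraries were kept (10481 of 55421). Comparisons were tested by quasi-likelihood in edgeR 4.0.16 (R 4.3.3) over all 17 libraries with 1 mean per group and Benjamini-Hochberg adjustment at 0.05; DESeq2 1.42.0 and limma voom (limma 3.58.1) were alternatives, beside RLE and upper quartile factors, 2 other filters, a larger prior count, covariates (sex, number series, macrophage score, B cell score), only the groups compared, only series 12, and libraries left out. Correlations used 2-sided permutation tests (SciPy 1.17.1; 100000 permutations, or exact below 10 values). Some genes of the fixed lists are not reported here and are left out of their sums, scores and counts. Genes named were the 8 members, the fixed pathway and marker lists, Ephb4 and the 5 genes most like the members' mean. The procedure was tested on simulated counts. Total counts were 66540022 to 120554468, and floors of 3 counts cover counting error only. P-values measure the spread between mice. Positions are from the GRCm38 gene annotation, promoters from RefSeq (GRCm38.p6).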

Additional observations from a re-analysis of the deposited data

Results flagged for a closer look

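Of 32 sets of 1 member in 1 group, 4 held a library whose gap to its nearest neighbour was large against the range of its group by Dixon's criterion, which chance meets in about 1 of 20 groups. H2-Aa was at 1.67 CPM in Ephb4 control PBS mouse 1 and at 20.5 to 26.2 CPM in the other 3 mice of the group (gap over range 0.911). Cd74 was at 39.1 CPM in the same library and at 94.1 to 108 CPM in the others (0.868). That library is the 1 Ephb4 control PBS mouse of number series 12, and its B cell marker sum was 0.0937 CPM, against 5.30 to 31 CPM in the others. It is also the only male of the group by label, so series and sex cannot be told apart here. H2-DMa was at 5.33 CPM in Ephb4 control bleomycin mouse 1 and at 17.5 to 20.8 CPM in the other 3 (0.874), and H2-DMb1 was at 10.8 CPM in it and at 16.3 to 17.3 CPM in the others (0.873). That library had the lowest macrophage marker sum of all, 1250 CPM.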

How the results depend on the processing

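No member had an adjusted p under 0.05 in any comparison under any alternative run, including the fits that left out 1 library (0 to 0 members called in each comparison); at an unadjusted p under 0.05 the most members in such a fit were 3 for bleomycin against PBS in control mice (beside 3.82% of all genes in that fit), 1 and 4 for CKO against control mice after PBS (3.21%) and after bleomycin (4.55% without control mouse 1, 11.6% without CKO mouse 2), 0 for bleomycin against PBS in CKO mice and for the interaction, and 6 for the number series (8.73%). Over all genes DESeq2 called 166, 1, 399 and 1 in the 4 group comparisons and 0 for the interaction, and 231, 0, 387, 1 and 1 with the table's column runs as a covariate, against 0 in edgeR's main fit. A member's log2 fold change turned sign 5, 18, 2 and 17 times over the alternatives for the 4 group comparisons in the order above, and 0 times for the number series; unless stated, the cause was not tested. For bleomycin against PBS in control mice, H2-Eb1 was 0.06 with the number series as covariate, and with only series 12, which leaves 1 PBS mouse, H2-Aa was 1.17, H2-Ab1 0.65, H2-DMa 0.01 and Ciita 1.30. Leaving out 1 library at a time, CKO against control mice after PBS ran from -0.08 to 1.66 for H2-Aa, -0.58 to 0.98 for H2-Eb1, -0.22 to 1.16 for Cd74 and -0.55 to 0.30 for Ciita. In this comparison Ciita was also 0.07 in DESeq2 with column runs, 0.42 with sex, 0.45 with the number series, 0.29 with the macrophage score and 0.55 with the B cell score as covariate, 2.52 with only series 12 and above 0 without control mouse 2 or 3 or CKO mouse 2 or 4. H2-Eb1 was -0.15 in limma voom. Without CKO PBS mice 1 and 5, H2-Aa, H2-Ab1, H2-Eb1 and Cd74 were -0.95, -0.67, -0.94 and -0.58, and the lowest of the ranges above were without mouse 5 for H2-Aa, H2-Eb1 and Cd74. For CKO against control mice after bleomycin, H2-DMa was -0.02 with the macrophage score and Ciita -0.02 with only series 12. For bleomycin against PBS in CKO mice, leaving out 1 library ran from -1.67 to 0.28 for H2-Aa, -1.52 to 0.55 for H2-Eb1, -1.18 to 0.43 for Cd74 and -1.51 to 0.04 for Ciita, the highest being without CKO PBS mouse 5, and from -0.42 to 0.00 for H2-DMa, the highest without CKO bleomycin mouse 2. Ciita was 0.58 in limma voom, and without the 3 libraries at odds with their labelled sex H2-Eb1 was 0.11, H2-DMa 0.08 and Ciita 0.31. Without CKO PBS mice 1 and 5, H2-Aa was 1.14, H2-Ab1 0.82, H2-Eb1 0.90, Cd74 0.78, H2-DMa 0.01, H2-DMb1 0.08, Ciita 0.63 and Cd86 0.02. The members with an adjusted permutation p under 0.05 for rho with Ciita numbered 4 over all libraries and 1 within series 11, which has fewer libraries. H2-Eb1 and Cd86 were under the filter with only series 12, and fitting only the groups compared does not apply to the interaction, which needs all 4. No paired analysis was possible because the replicate numbers only name the mice in accession order. At the depth of these libraries Ciita, with as few as 0 counts, is the member most limited by counting.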

Other observations

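Other ligands of T cells beside Cd86 varied in their own ways. Cd80, which binds the same receptors as Cd86, was at 2.80 to 9.45 CPM in 16 libraries and at 23.2 CPM in Ephb4 CKO PBS mouse 1. Cd40, a receptor for T cell help on antigen-presenting cells, averaged 9.37 ± 8.15 CPM (SD, n = 5) after PBS and 1.79 ± 0.564 CPM (SD, n = 4) after bleomycin in Ephb4 CKO mice. Its log2 fold change of -2.39 (SE 0.75) had an adjusted p of 1 by the Benjamini-Hochberg adjusted quasi-likelihood test of edgeR, and the groups overlapped. CKO PBS mice 1 and 5 were at 20.7 and 15.0 CPM of Cd40. Icosl, a ligand that B cells and macrophages carry, was at 5.38 to 41.2 CPM in number series 11 and at 0.963 to 12.5 CPM in series 12, with CKO PBS mouse 1, the highest library for Ifng and Cd274, the lowest for Icosl. Cd274, which encodes PD-L1, after bleomycin averaged 43.2 ± 24.3 CPM (SD, n = 4) in control mice and 132 ± 79.0 CPM (SD, n = 4) in CKO mice, which gave 1.62 on the log2 scale (SE 0.93) with an adjusted p of 0.310 by edgeR's quasi-likelihood test, and control bleomycin mouse 1 was the lowest library for it at 8.52 CPM.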
